A study of Caenorhabditis elegans with 2 samples.

Results

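Small nuclear RNA (snRNA) genes of Caenorhabditis elegans were read for peaks of eGFP-tagged CEH-28, an NK-2 homeodomain protein known from the M4 pharyngeal neuron. The members are all genes with the biotype snRNA in the Ensembl annotation of the WBcel235 assembly, with 500 bp on either side. There were 129 such genes among 46890 annotated genes on the 6 nuclear chromosomes, and 23 of them had a summit of the thresholded peak list in that window. Chromatin immunoprecipitation and sequencing had been done on whole L3 larvae, pooled male and female, of strain OP241, which carries unc-119(ed3) III and the transgene wgIs241. Both samples carry this genotype, so the study is 1 group of 2 biological replicates with no comparison group. Peaks are from whole animals, and the cells that held the tagged protein cannot be told from the lists. The thresholded list held 3531 peaks, all of them the strongest peaks of a relaxed list of 30000 peaks made from both replicates pooled. Each replicate also had its own relaxed list of 30000 peaks. Signal below is the authors' value per peak, rank 1 is the strongest peak of a list, and no read counts are given, so the depth is unknown.

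Spliceosomal snRNAs are the RNA parts of the particles that remove introns. In nematodes a further class, the spliced leader RNAs, donates a short exon to the start of many messenger RNAs: SL1 RNA comes from the sls-1 genes, and SL2 RNA, which is used for downstream genes of operons, from the sls-2 genes. SmY RNAs, from the smy genes, are nematode RNAs bound by Sm proteins. Most snRNA genes are short, lack introns and are transcribed from a compact upstream control region called the proximal sequence element, which the SNAP complex binds. Suppressor mutations in sup-39 and sup-6, which are U1 RNA genes, made them known. The annotation gives no type for the other genes, so they were grouped by sequence identity of at least 80% and each family is called by the member with its strongest pooled peak, apart from the sup-39 family.

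Upstream stretches of bound genes, most of them with strong peaks, are shown so that the letters shared by snRNA genes can be seen, and for each family shown a gene without a thresholded summit is set beside them. Of these, sls-2.12, F40G12.14, C53D6.12 and K03B8.10 had no summit in the pooled relaxed list either, while R07E5.16 and F08G2.11 had summits there. The weakly bound sls-2.17 is included because its stretch is the most like that of an unbound gene. Each runs from 100 bases before the annotated 5' end to the base before it, 5' to 3' on the gene's strand, from the RefSeq sequence of WBcel235, which has ce11 coordinates. Capitals mark GNAACCC and TGTCNG, where N is any base, found between 80 and 30 bases before the 5' end.
sls-2.1: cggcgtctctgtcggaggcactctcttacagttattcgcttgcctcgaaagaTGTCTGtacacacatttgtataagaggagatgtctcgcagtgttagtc
sls-2.2: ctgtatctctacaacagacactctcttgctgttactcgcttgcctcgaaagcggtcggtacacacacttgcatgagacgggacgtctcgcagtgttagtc
sls-2.3: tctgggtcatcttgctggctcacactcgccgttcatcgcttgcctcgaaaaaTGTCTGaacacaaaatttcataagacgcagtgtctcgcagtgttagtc
sls-2.8: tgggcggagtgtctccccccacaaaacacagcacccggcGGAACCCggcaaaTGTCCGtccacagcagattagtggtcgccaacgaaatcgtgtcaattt
sls-2.17: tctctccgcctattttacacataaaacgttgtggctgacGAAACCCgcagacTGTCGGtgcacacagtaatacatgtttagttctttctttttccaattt
sls-2.12, no peak: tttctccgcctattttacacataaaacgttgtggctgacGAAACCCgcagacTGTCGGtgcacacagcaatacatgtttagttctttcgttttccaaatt
sup-6: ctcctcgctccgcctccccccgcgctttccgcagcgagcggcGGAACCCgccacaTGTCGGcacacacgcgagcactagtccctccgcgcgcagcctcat
sup-39: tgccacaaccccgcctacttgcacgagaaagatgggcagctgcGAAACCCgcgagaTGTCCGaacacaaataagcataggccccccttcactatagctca
F40G12.14, no thresholded summit: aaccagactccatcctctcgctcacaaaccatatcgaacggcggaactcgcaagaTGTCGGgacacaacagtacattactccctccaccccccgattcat
W05B2.8: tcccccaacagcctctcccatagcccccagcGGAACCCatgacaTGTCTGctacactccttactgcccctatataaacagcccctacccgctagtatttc
R07E5.16, no thresholded summit: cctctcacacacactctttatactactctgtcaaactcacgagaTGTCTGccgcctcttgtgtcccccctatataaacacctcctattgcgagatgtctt
Y54G9A.8: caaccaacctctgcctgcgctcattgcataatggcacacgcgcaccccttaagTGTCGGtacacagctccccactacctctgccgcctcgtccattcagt
F08G2.11, no thresholded summit: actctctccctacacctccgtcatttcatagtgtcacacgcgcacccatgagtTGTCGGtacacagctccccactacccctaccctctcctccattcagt
F38E11.10: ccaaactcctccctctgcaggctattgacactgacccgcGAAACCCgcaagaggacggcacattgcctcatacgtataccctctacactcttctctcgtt
C53D6.12, no thresholded summit: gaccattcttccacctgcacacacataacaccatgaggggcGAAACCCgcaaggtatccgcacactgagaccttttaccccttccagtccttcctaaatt
C52E4.8: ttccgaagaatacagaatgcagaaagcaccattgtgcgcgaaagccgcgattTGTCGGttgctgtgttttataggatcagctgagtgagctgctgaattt
K03B8.10, no thresholded summit: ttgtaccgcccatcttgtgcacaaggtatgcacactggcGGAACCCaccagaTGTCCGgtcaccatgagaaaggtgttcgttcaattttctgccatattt

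The stretches lie at chrII:5844765-5844864 (sls-2.1, + strand), chrII:5543498-5543597 (sls-2.2, +), chrII:5544274-5544373 (sls-2.3, −), chrIII:12250365-12250464 (sls-2.8, +), chrIV:5317369-5317468 (sls-2.17, −) and chrIV:5261813-5261912 (sls-2.12, +). Those of the sup-39 family are chrII:12944968-12945067 (sup-6, −), chrII:6968559-6968658 (sup-39, −) and chrV:14277474-14277573 (F40G12.14, +). The others are chrIII:10989579-10989678 (W05B2.8, +), chrIII:4414085-4414184 (R07E5.16, +), chrII:13717754-13717853 (Y54G9A.8, −), chrII:13852687-13852786 (F08G2.11, +), chrIV:9444542-9444641 (F38E11.10, +), chrIV:9001423-9001522 (C53D6.12, −), chrV:11980018-11980117 (C52E4.8, +) and chrV:11391215-11391314 (K03B8.10, −). The unbound K03B8.10 holds both motifs, and the bound C52E4.8 holds TGTCNG alone.

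Across all 129 snRNA genes, 99 held GNAACCC or TGTCNG on the gene's own strand between 80 and 30 bases before the 5' end (76.7%), against 3.12% of the 46761 other annotated genes. GNAACCC stood there in 46 snRNA genes and TGTCNG in 78, and 25 genes had both. On either strand the shares were 42.6% for GNAACCC and 61.2% for TGTCNG in snRNA genes, against 0.781% and 4.91% in the other genes. The motifs were read from these same stretches, so the shares describe the snRNA genes and are no test. The 2 motifs share no bases in the stretches shown. A TATATAA stood between 45 and 15 bases before the 5' end in 16 snRNA genes, 15 of which belong to the W05B2.8 family, as in the W05B2.8 and R07E5.16 stretches above. On either strand TATATAA was found in 12.4% of snRNA genes and 1.51% of the others.

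The upstream motifs were found at snRNA genes with and without a summit. Of the 99 genes with at least 1 of them, 22 had a thresholded summit (22.2%), against 1 of the 30 genes with neither (3.33%). That 1 gene is sls-2.2. Over all annotated genes the share was 8.42%. The motifs were read from stretches that are mostly of bound genes, so this contrast is a description and no test. The most alike pair of a bound and an unbound gene was sls-2.17 and sls-2.12, whose stretches differ by 4 edits in 100 bases (96.0% identity). A thresholded summit lay 27 bp inside sls-2.17, with signal 79.76 (rank 2714), while sls-2.12 had no peak in the pooled relaxed list. Of the 36-base words in the windows, 69.7% were found once in the genome at sls-2.17 and 80.4% at sls-2.12. Within the genes themselves the order was the reverse, 93.2% at sls-2.17 and 33.3% at sls-2.12. Whether this has a part in the missing peak was not tested.

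SL2 RNA genes carried more summits than any other family. Thresholded summits lay within 500 bp of 10 of the 18 sls-2 genes (55.6%, 95% Wilson interval 33.7 to 75.4%, counting error only), against 13 of the 111 other snRNA genes (11.7%) and 8.42% of all 46890 annotated genes. The last share includes 15363 piRNA genes, of which 1.12% had a summit. At sls-2.2, sls-2.6 and sls-2.8 another annotated 5' end was nearer to the summit. With only the 500 bp upstream of the 5' end, 5 of the 18 were bound, against 4.14% of all annotated genes. In the strongest 3531 peaks of each replicate taken alone, summits stood at 8 sls-2 genes in replicate 1 and 10 in replicate 2. Those lists had summits at 8.25% and 8.27% of all annotated genes. Counting the pooled relaxed list, 15 of the 18 had a summit, against 41.0% of all annotated genes. None was found there at sls-2.11, sls-2.12 and sls-2.13. By chromosome, all 4 sls-2 genes on chromosome I and all 3 on chromosome II had a thresholded summit, against 2 of 6 on chromosome III and 1 of 5 on chromosome IV. The family was picked out after its values were seen, and no test of it was run.

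**Figure D1:**
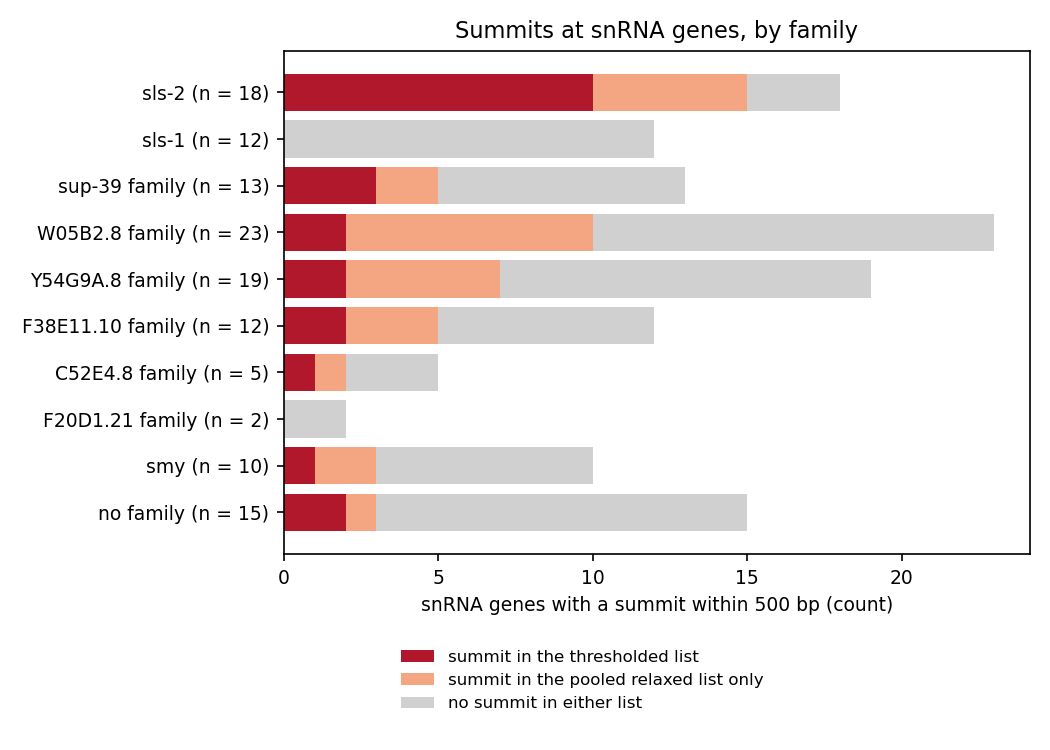
Number of snRNA genes (x axis) in each family (y axis) with a summit within 500 bp in the thresholded list, in the pooled relaxed list only, or in neither. The sls-2 genes have 10 of 18 in the thresholded list, and the sls-1 genes have 0 of 12 in either list.

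The strongest snRNA peak lay at sls-2.1 on chromosome II, with a signal of 676.7 (rank 101) at 19 bp upstream of the 5' end. Its signal was 384.3 (rank 123) in replicate 1 and 294.2 (rank 88) in replicate 2, so the peak stood near the top of both lists. The same peak interval had a second summit 188 bp downstream of the 5' end, beyond the 110 bp gene, with signal 235.9, and 140.7 in replicate 1 and 107.3 in replicate 2.

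The pair of summits at sls-2.4 on chromosome I was placed in the same way. Its upstream summit, at 23 bp before the 5' end, had signal 466.1 (rank 202), with 235.9 in replicate 1 and 231.7 in replicate 2. Its downstream summit, at 177 bp, had signal 345.9 (rank 348), with 187.9 in replicate 1 and 170.6 in replicate 2. Both replicates thus gave both summits.

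The neighbours sls-2.2 and sls-2.3 face each other on chromosome II and share a summit. That summit, 96 bp into sls-2.2, had signal 449.3 (rank 219), with 219.1 in replicate 1 and 228.9 in replicate 2. It lay 579 bp downstream of the 5' end of sls-2.3, which also had its own weaker summit 54 bp upstream, with signal 120.9 (rank 1539), 52.53 in replicate 1 and 68.93 in replicate 2.

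Lower in the list came the other sls-2 genes. At sls-2.8 on chromosome III, 67 bp into the gene, the signal was 178.7 (rank 931), with 94.39 in replicate 1 and 89.73 in replicate 2. At sls-2.7, 153 bp downstream of the 5' end, it was 113.2 (rank 1677), with 52.65 in replicate 1 and 62.16 in replicate 2. The sls-2.6 summit, 274 bp upstream with signal 97.52, had 38.75 (rank 3285) in replicate 1 and 59.49 (rank 1494) in replicate 2. It also lay 79 bp upstream of the 5' end of hgo-1, the protein-coding gene that contains sls-2.6.

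The weakest sls-2 peaks ranked lower in replicate 1. At sls-2.16, 43 bp into the gene, the signal was 96.12, with 30.93 (rank 4536) in replicate 1 and 64.07 (rank 1321) in replicate 2. At sls-2.9 it was 81.58 at 25 bp upstream, with 37.78 (rank 2972) in replicate 2 and no overlapping peak in the replicate 1 list. The sls-2.17 peak had 29.17 (rank 4937) in replicate 1 and 41.54 (rank 2563) in replicate 2 at the nearest summits of each, and its best rank within the window was 3179 in replicate 1 and 2563 in replicate 2.

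Just below the threshold stood sls-2.18, whose best pooled signal was 64.00 (rank 3701) against the lowest thresholded signal of 65.92. Its signal was 34.69 in replicate 1 and 25.21 in replicate 2. It lies in glr-2 together with sls-2.16 and sls-2.5, and the thresholded summit of sls-2.16 lay 857 bp from it. Next among unbound genes were sls-2.14, with a pooled signal of 52.21 (rank 4914), 28.61 in replicate 1 and 30.54 in replicate 2, and F08H9.11 of the sup-39 family, with 49.44 (rank 5298), 34.61 in replicate 1 and 21.34 in replicate 2. sls-2.10 had 44.66 and R07E5.16 had 39.37. These are the 5 unbound genes with the highest pooled signals.

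**Figure D2:**
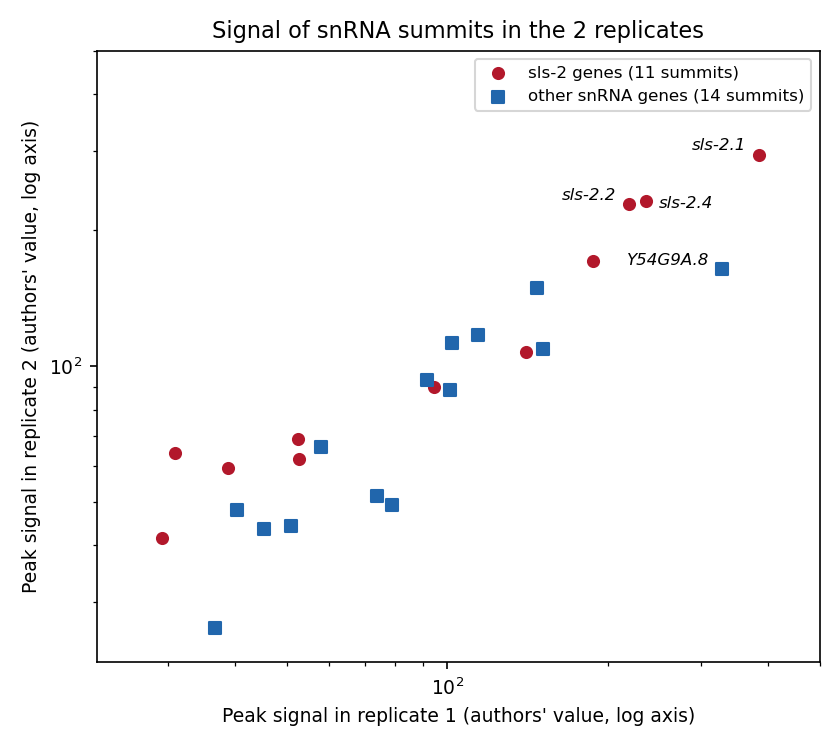
Peak signal in replicate 1 (x axis) and replicate 2 (y axis), both log axes, for the 25 of 26 snRNA summits with an overlapping peak in each replicate, as sls-2 and other genes. The points run along a rising band, with sls-2.1 highest at 384.3 and 294.2.

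SL1 RNA genes had no peak in their windows. None of the 12 sls-1 genes had a summit in the thresholded or the pooled relaxed list within 500 bp. They lie in a tandem array on chromosome V, and a median of 4.70% of the 36-base words in their windows occur once in the genome, ranging between 0 and 29.5%. In the sls-2 windows the median was 94.7%. The sources used here give neither read length nor the treatment of reads with several matches, so the part of repeats in the missing peaks was not tested, and the count of 0 sets no limit on binding there.

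Among U1 RNA genes and their relatives, 3 of the 13 members of the sup-39 family had a thresholded summit (23.1%, against 8.42% of all annotated genes). sup-6 had 2, at 188 bp downstream (signal 260.2, rank 524) and 11 bp upstream (178.3, rank 934). The downstream one had 151.2 (rank 527) in replicate 1 and 109.3 (rank 577) in replicate 2, and the upstream one 101.3 (rank 892) in replicate 1 and 88.43 (rank 826) in replicate 2. The ranks of each were close in both lists. sup-39 had its summit 4 bp upstream with signal 128.5 (rank 1418), 78.84 in replicate 1 and 49.16 in replicate 2. The annotated 22 bp snRNA gene mir-1831 lies within sup-39 and shares that summit, so 1 peak accounts for 2 members. The T08G5.11 summit, 249 bp downstream, had signal 90.76, with 51.01 in replicate 1 and 44.24 in replicate 2.

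The remaining families each had few bound members. In the W05B2.8 family of 23 genes, W05B2.8 itself had a summit 24 bp upstream with signal 291.4 (rank 444), 147.4 in replicate 1 and 148.7 in replicate 2. F54D8.7 of the same family had 76.76 at 126 bp upstream, with 45.38 in replicate 1 and 43.45 in replicate 2. These were the 2 bound members, both with TATATAA near the 5' end, as in 15 of the family's 23 genes. Of all snRNA genes, 13.0% of those with a thresholded summit and 12.3% of those without one had TATATAA there.

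The Y54G9A.8 family of 19 genes also had 2 bound members. The Y54G9A.8 summit had the second strongest signal at any snRNA gene, 491.7 (rank 190), with 328.2 in replicate 1 and 164.2 in replicate 2, but lay 417 bp upstream, the farthest of the nearest summits. F08G2.10 had 81.16 at 278 bp downstream, with 40.38 in replicate 1 and 47.81 in replicate 2, and histone gene his-42 has its 5' end 516 bp from that summit. Neither summit stood at the start of its snRNA gene.

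In the F38E11.10 family of 12 genes, F38E11.10 had a summit 94 bp into the gene with signal 224.4 (rank 656), 114.3 in replicate 1 and 117.1 in replicate 2. F32B5.9, on chromosome I inside cpz-1, had 124.6 at 9 bp upstream, with 73.97 in replicate 1 and 51.59 in replicate 2. C52E4.8, 1 bound gene of a family of 5, had 2 summits, at 27 bp upstream (signal 210.8, rank 731) and 173 bp downstream (189.8, rank 845). The upstream one had 102.0 in replicate 1 and 112.5 in replicate 2, and it is also the summit nearest to snr-4, which encodes an Sm protein.

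The last bound genes were smy-1, 1 of 10 smy genes, and M163.13 on chromosome X. The smy-1 summit lay 381 bp downstream of the 5' end, with signal 121.6, 58.04 in replicate 1 and 66.24 in replicate 2. M163.13 had the weakest thresholded signal at an snRNA gene, 65.98 (rank 3523), at 82 bp upstream, with 36.66 in replicate 1 and 26.27 in replicate 2. Its signal is next to the list's lowest, 65.92.

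The 23 genes had 26 summits in 24 peak intervals, counting once those that neighbours share. Their median signal was 153.4 (range 65.98 to 676.7), against 109.5 over all 3531 thresholded summits (range 65.92 to 5643). Of the 26, 18 were above the list's median (69.2%) and 6 were among the first 500 ranks. Peaks among the strongest 3531 of both replicates overlapped the intervals of 23 of the 26 (88.5%), against 73.7% over the whole list. Across the 25 summits with a peak in each replicate, Spearman's rho between the replicates' signals was 0.92; these points are peaks of the same 2 libraries and were chosen for being in the pooled list.

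The window edge touched few genes. Y54G9A.8, at 417 bp from the gene, was the last inside it, before it smy-1 at 305 bp and sls-2.6 at 274 bp. Just outside lay T27E4.11 at 847 bp, sls-2.18 at 857 bp, sls-2.5 at 881 bp and R07E5.16 at 960 bp.

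Many summits stood at the starts of the genes. For 10 of the 23 genes (43.5%) the nearest summit was between the 5' end and 60 bp upstream of it, with sup-39 and mir-1831 counting the same summit. For 17 it was within 150 bp on either side, a range not counted over other genes. The share up to 60 bp upstream was 24.5% of the 53 snoRNA genes with a summit, 25.6% of the 78 tRNA genes and 3.57% of the 28 miRNA genes. It was 5.72% of the 2885 protein-coding genes and 6.82% of all 3946 annotated genes with a summit. Absolute distance from the 5' end to the nearest summit had a median of 54.0 bp at snRNA genes, 87.0 bp at snoRNA genes, 72.0 bp at tRNA genes and 343 bp at protein-coding genes. Protein-coding windows include the whole gene, so their summits can lie farther off. Where TGTCNG stood upstream of a bound gene, in 18 genes, the nearest summit was a median of 30 bp downstream of the motif's first base, with a wide spread between 370 bp upstream and 325 bp downstream. It lay upstream of the motif at 5 genes, 20 to 40 bp downstream at 8 and farther downstream at 5, and sup-39 and mir-1831 count the same summit.

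At sls-2.1, sls-2.4, sup-6 and C52E4.8 a summit stood 11 to 27 bp upstream and another 173 to 188 bp downstream of the 5' end. At sls-2.1 and sls-2.4 both summits share an interval and were 207 and 200 bp apart, while at sup-6 and C52E4.8 they belong to separate peaks whose intervals overlap. Over the whole list, summits that share an interval were 199 to 877 bp apart (median 217, 78 pairs). Words of 36 bases found once in the genome made up 41.3% of the sls-2.1 gene, 78.7% of sls-2.4, 57.7% of sup-6 and 0% of C52E4.8. Whether the repeated sequence between them has a part in the spacing was not tested.

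**Figure D3:**
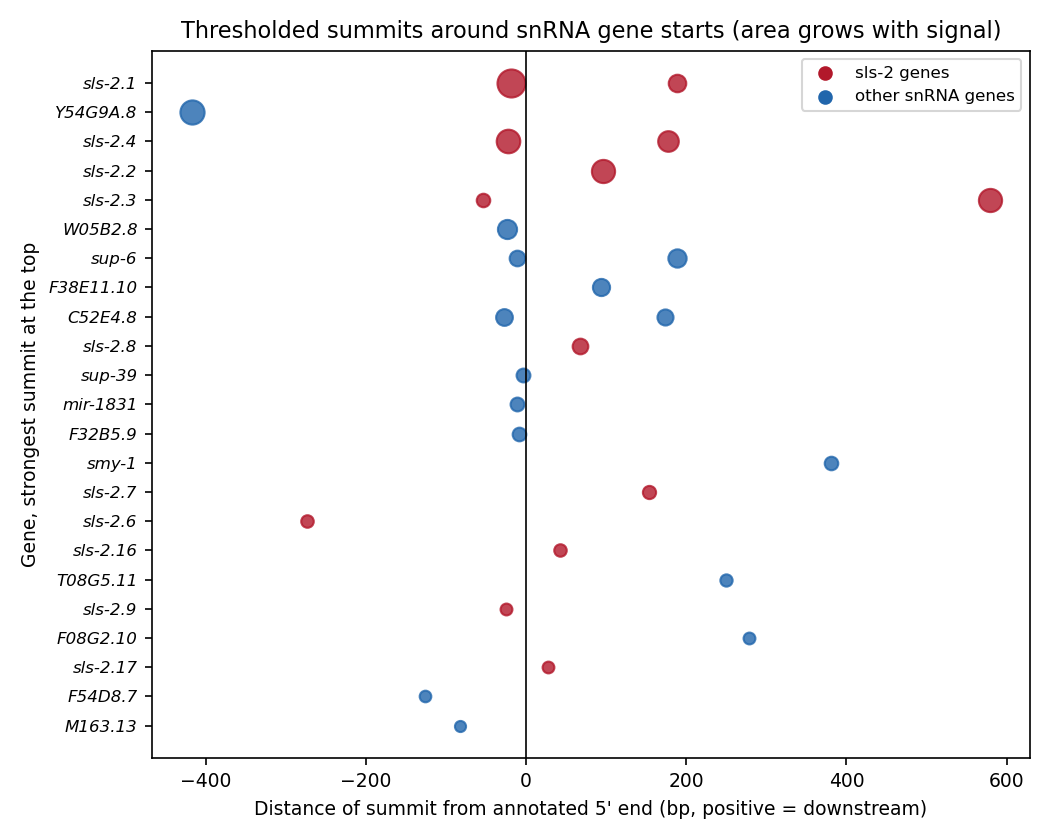
Distance in bp of each thresholded summit from the annotated 5' end (x axis, positive is downstream) for the 23 snRNA genes with one (y axis, strongest at the top), with dot area growing with signal. At 10 genes the nearest summit lies between 60 bp upstream and the 5' end.

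Other genes often lay close by. For 15 of the 23 genes the snRNA gene's 5' end was the nearest annotated 5' end to a summit, and 8 lie inside a protein-coding gene. Genes inside protein-coding genes were bound in 8 of 63 cases (12.7%), against 15 of 66 outside them (22.7%). Over all annotated genes the share was 8.42%, and other genes were not split in this way. Families are spread unevenly over both sets, with all 12 sls-1 genes, none of them bound, outside. Windows of bound genes had a median of 93.3% of their 36-base words unique in the genome, those with a relaxed peak only 92.1%, and those with no peak 85.3%. Within the genes themselves the medians were 47.7% for 22 bound genes, 24.1% for 27 genes with a relaxed peak only and 13.8% for 79 genes with no peak. The part of this difference in which genes have peaks was not tested.

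As a class, snRNA genes were set beside other biotypes. Thresholded summits within 500 bp were found at 23 of 129 snRNA genes (17.8%, 95% Wilson interval 12.2 to 25.3%), against 15.3% of 346 snoRNA genes, 12.7% of 612 tRNA genes, 10.7% of 261 miRNA genes, 1.12% of 15363 piRNA genes, 14.4% of 19973 protein-coding genes and 8.42% of all annotated genes. The interval of the snRNA share covers the snoRNA, tRNA and protein-coding shares and lies above those of miRNA genes, piRNA genes and all annotated genes. The interval of the miRNA share, 7.53 to 15.1%, overlaps it. Such intervals treat genes as independent, though some neighbours share a summit. Counting only 500 bp on either side of the 5' end, whatever the length of the gene, the shares were 17.8% for snRNA, 14.7% for snoRNA, 12.1% for tRNA, 10.3% for miRNA, 1.04% for piRNA, 8.74% for protein-coding and 5.81% for all genes. There the same snRNA interval, 12.2 to 25.3%, covers the snoRNA share alone. The intervals of tRNA genes (9.74 to 14.9%) and miRNA genes (7.21 to 14.6%) overlap it. A pooled relaxed summit was found at 50 of 129 snRNA genes (38.8%, interval 30.8 to 47.4%), against 55.5% of snoRNA, 55.9% of tRNA, 39.8% of miRNA, 29.0% of piRNA and 53.4% of protein-coding genes and 41.0% of all annotated genes. In that list the snRNA interval lies below the snoRNA, tRNA and protein-coding shares. Strongest peaks of replicate 1 alone gave 20 snRNA genes (15.5%), against 8.25% of all genes, and those of replicate 2 gave 22 (17.1%), against 8.27%.

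**Figure D4:**
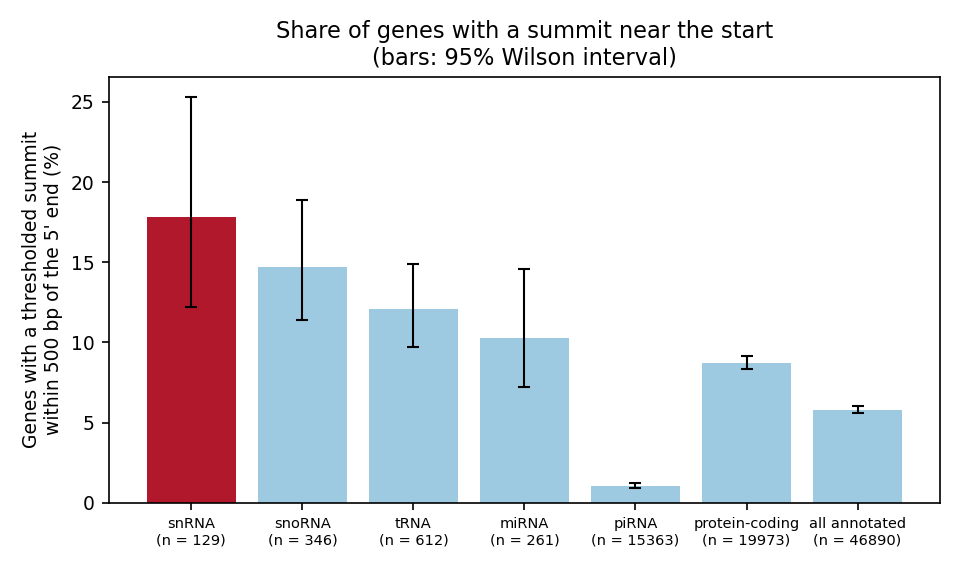
Percent of genes (y axis) of each biotype (x axis) with a thresholded summit within 500 bp of the annotated 5' end, with 95% Wilson intervals as bars. snRNA genes stand at 17.8%, snoRNA genes at 14.7% and all annotated genes at 5.81%.

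Of the motifs taken from the whole list, the first was at a smaller share of snRNA summits than of all summits, and the others were at few of either. AATCGAT or AATCAAT, on either strand within 50 bp, was found at 3 of the 26 snRNA summits (11.5%, with 29.0% as the upper bound of the 95% Wilson interval), against 1672 of all 3531 thresholded summits (47.4%). Those 3 were at Y54G9A.8, F54D8.7 and T08G5.11, and none of the 12 sls-2 summits had it. CTGCGTC was found at 2 snRNA summits (7.69%), those of sls-2.6 and sls-2.3, against 8.55% of all. TCAAGTG or TTAAGTG, letters known as a binding sequence of NK-2 class proteins, was found at 1 snRNA summit (3.85%), at sls-2.9, against 1.30% of all. GCGCAGGG was found at 0 of 26, which allows a share of up to 12.9%, against 0.453% of all.

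The upstream letters of snRNA genes were more frequent. TGTCNG lay within 50 bp of 10 of the 26 snRNA summits (38.5%), against 14.6% of all thresholded summits, and GNAACCC at 3 (11.5%), against 2.44%. These motifs were read from snRNA genes, so the shares are a description.

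**Figure D5:**
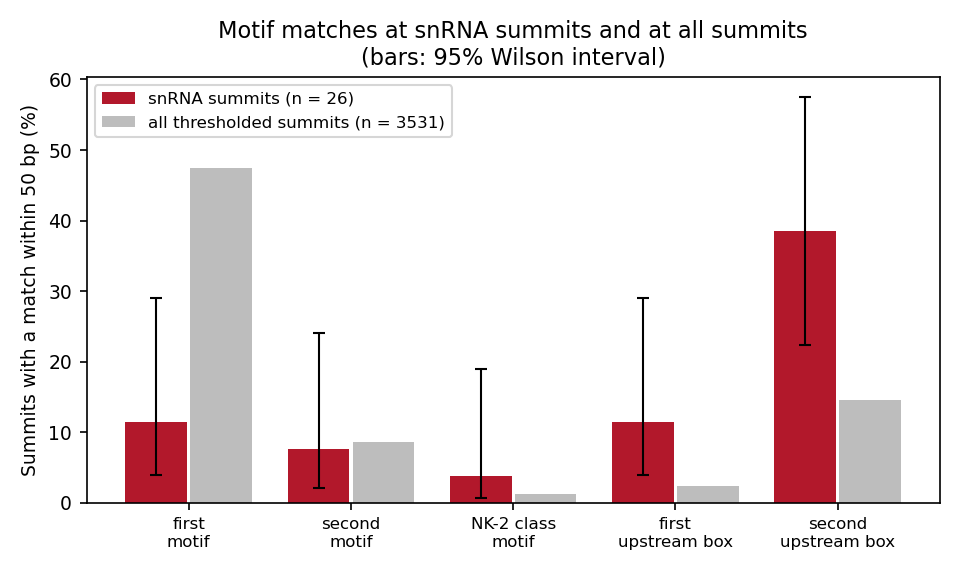
Percent of summits with a match within 50 bp on either strand (y axis) for the motifs AATCGAT or AATCAAT (first motif), CTGCGTC (second motif), TCAAGTG or TTAAGTG (NK-2 class motif), and the upstream boxes GNAACCC and TGTCNG, at snRNA summits (bars with 95% Wilson intervals) and at all thresholded summits. The first motif is at 11.5% of snRNA summits and 47.4% of all summits.

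Genes for proteins that make or package snRNAs were taken from a list of 44 genes. A thresholded summit lay within 500 bp of 15 of them (34.1%, 95% Wilson interval 21.9 to 48.9%), against 14.4% of all protein-coding genes. The window takes in the whole gene, so longer genes have larger windows. With only the 500 bp upstream of the 5' end the count was 10, against 4.14% of all annotated genes. With 250 bp windows the count was 9 (20.5%, against 11.3% of protein-coding genes), and with peaks above the median signal 7 (15.9%, against 7.39%). By role these were 5 of 7 Sm protein genes, which form the ring around snRNAs (snr-1, snr-2, snr-3, snr-4 and snr-6), 5 of 11 Integrator genes, whose products cut the 3' ends of snRNAs in other animals (ints-2, ints-4, ints-5, ints-8 and ints-9), 2 of 9 genes of the SNAP complex and TBP (snpc-4 and snpc-3.2), 2 of 7 Lsm genes (lsm-7 and lsm-8) and smi-1, 1 of 4 genes for assembly or RNA modification. No summit was found at the 3 genes of U1 and U2 particle proteins or the 3 of spliced leader particle proteins.

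The Sm genes had their summits in front of the gene. snr-2 had signal 253.0 at 374 bp upstream, with 159.6 in replicate 1 and 93.74 in replicate 2. snr-6 had 103.1 at 262 bp upstream, with 71.11 in replicate 1 and 34.05 in replicate 2. snr-1 had 78.62 at 379 bp, with 44.38 in replicate 1 and 26.84 (rank 5092) in replicate 2. snr-3 had 78.61 at 225 bp, with 49.34 in replicate 1 and 32.36 (rank 3796) in replicate 2. snr-4 had 210.8 at 368 bp upstream, the summit shared with C52E4.8.

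The strongest peak at these 44 genes was at smi-1, which encodes a partner of the SMN protein that assembles Sm rings. It had signal 1035 (rank 44), with 699.5 in replicate 1 and 339.3 in replicate 2, and lay 721 bp downstream of the 5' end. ints-4 had 416.9 (rank 251) 38 bp downstream of its 5' end, with 238.0 in replicate 1 and 178.5 in replicate 2. Of the others, ints-9 had 245.9, lsm-7 186.6, lsm-8 182.5, ints-8 108.4, ints-5 106.5, snpc-3.2 86.12, snpc-4 74.60 and ints-2 66.60. In replicate 2 ints-2 had rank 4841 and snpc-3.2 rank 3800, both outside the strongest 3531 of that list. The summits at ints-5, ints-8, ints-9, lsm-8 and snpc-3.2 lay 10308, 6402, 4801, 1121 and 2503 bp downstream of their 5' ends. That of snpc-3.2 is past the end of the gene, which spans chrI:252107-254294.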

How the data were processed

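The data are deposited peak lists of 2 biological replicates of 1 group, with a fragment size range of 150 to 350 bp per the labels. The authors called a relaxed list for each replicate and for both pooled, with a control, and, per the records deposited with the files, derived a thresholded list by irreproducible discovery rate. Which aligner and peak caller were used, and in what version, is not given in the sources used here. Signal is the authors' deposited value per peak, used only to rank, filter and describe peaks of 1 list. No read counts are given, so depth is unknown, and intervals cover counting error only. In the replicate 2 list 1 summit beyond its interval was set to the last base.

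Genes came from Ensembl release 115, and symbols for all 129 snRNA genes and the sequences from RefSeq, all of WBcel235 (ce11), counted from 1. A gene was counted where a thresholded summit lay within 500 bp of it. Families were formed by symbol (sls-1, sls-2, smy) or by at least 80% identity (edlib 1.3.9.post1). Peaks of a replicate were matched to a summit by overlap of at least 1 bp and nearest summit. Counts are given with 95% Wilson intervals (scipy) beside the same over all genes, with no test, and window and list choices were varied. Every bound gene, the 5 strongest unbound genes by pooled signal and every pathway gene with a summit are named. The members, motifs and lists were chosen with earlier results of these data known. Counting code was tested on simulated data.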

Additional observations from a re-analysis of the deposited data

How the results depend on the processing

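Counts of 23 bound snRNA genes, 26 summits and 15 pathway genes stayed within 1.5 times under most alternatives. Of the snRNA genes, 14 were bound with only the 500 bp upstream of the 5' end, 15 with thresholded peaks above the median signal, and 15 where the snRNA 5' end was the nearest one to the summit; upstream only, 13 summits were left. Pathway genes fell to 9 with 250 bp windows and to 7 with peaks above the median signal, and 11 were left with peaks strong in both replicates. The sls-2 count lay between 5 (upstream only) and 12 (1000 bp) over all settings, and the sls-1 count was 0 in each. Leaving out a replicate gave 20 to 22 snRNA genes, 24 to 28 summits and 14 to 17 pathway genes.

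All annotated genes were called at 6.38% with 250 bp, 10.7% with 1000 bp, 4.14% upstream only, 9.28% by interval overlap, 4.20% above the median signal, 6.12% for peaks strong in both replicates and 5.81% within 500 bp of the 5' end, the last chosen after seeing the data, and 8.25 to 8.27% without a replicate. The median signal was 178.3 with 250 bp, 124.6 with 1000 bp, 128.5 upstream only and by interval overlap, 178.7 for peaks strong in both replicates, and 67.59 to 92.94 without a replicate, on each list's own scale. The median distance from the nearest snRNA 5' end, 11.5 bp, was -25.0 bp upstream only, and 34.5 to 79.5 bp without a replicate. AATCGAT or AATCAAT was found at 3.85% with 25 bp windows and at 7.14 to 16.7% without a replicate. The cause of these changes was not tested. No paired analysis was possible because there is 1 group and no comparison. Depth is unknown, so its limits cannot be given.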
